A study of Mus musculus with 34 samples.

Results

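Chemokines are small secreted proteins that steer leukocytes, and the transcripts of 10 chemokine genes were followed here across the livers and hepatocellular carcinomas (HCC) of irradiated and unirradiated mice. The genes were Ccl2, Ccl5, Ccl6, Ccl9, Cxcl1, Cxcl9, Cxcl10, Cxcl12, Cxcl16 and Cx3cl1, picked to cover attractants of T cells, monocytes and neutrophils, and every probe carrying one of these symbols in the platform annotation was taken. That gave 16 of the 45281 probes on the array, of which 34885 carried a single gene symbol, and 10 of 19057 genes. Cxcl12 had 5 probes, Cxcl10 and Cxcl16 had 2 each, and the other genes had 1.

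RNA from whole pieces of liver or tumor was hybridized to Illumina mouse BeadChips, 1 array per mouse, for 34 male C3H/HeNCrl mice that had received a single whole-body exposure as young adults or had been sham-irradiated. High-LET radiation (densely ionizing Fe or Si ions) and low-LET radiation (γ-rays) were crossed with pathology, which made 6 groups. The study describes its irradiated non-HCC livers as coming from mice given Fe ions or γ-rays, while high-LET HCC followed Fe or Si ions. The non-HCC groups were 6 sham livers at 0 Gy, 4 low-LET livers at 3, 5, 6 and 7 Gy and 10 high-LET livers at 1 Gy. The tumors were 4 spontaneous HCC at 0 Gy, 3 low-LET HCC at 2, 2 and 3 Gy and 7 high-LET HCC at 0.1, 0.2, 0.2, 0.2, 0.4, 1 and 1 Gy. Sham livers and spontaneous HCC were all at 0 Gy. Among irradiated mice, livers and tumors shared a dose only at 1 Gy and at 3 Gy. These were 10 high-LET livers and 2 high-LET HCC at 1 Gy and 1 low-LET liver and 1 low-LET HCC at 3 Gy. The parts of dose and of ion in the differences that involve irradiated mice were not tested. Animals were killed when moribund, when signs of a tumor showed or at an age limit, and individual ages were not used here. All p-values below measure the spread between mice. Median raw intensity ran from 93.1 to 127 over the arrays, between 20768 and 26512 probes an array lay above its background limit (the one-sided 95% point of a background distribution taken from the dim side of the signals), and the number of arrays limits the precision. All 9 hepatocyte markers were above background in every group. Their mean log2 level was 11.61 to 11.90 in sham livers and 10.66 to 11.82 in high-LET HCC. In bulk tissue, fewer cells of a type and less RNA per cell cannot be told apart.

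Chemokines bind G protein-coupled receptors on leukocytes and draw the cells up a gradient held on endothelium and matrix. The families are named for the spacing of their conserved cysteines (CC, CXC and CX3C). Interferon-γ induces Cxcl9 and Cxcl10, whose products call activated T cells and NK cells through CXCR3, while nuclear factor κB and inflammatory cytokines induce Cxcl1 and Ccl2, whose products call neutrophils through CXCR2 and monocytes through CCR2. Cxcl12 is a constitutive chemokine of stroma and endothelium that signals through CXCR4, and Cxcl16 and Cx3cl1 encode membrane-bound chemokines that can be shed and that bind CXCR6 and CX3CR1.

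Several of the genes are close neighbors. In RefSeq (GRCm38.p6), Ccl5, Ccl9 and Ccl6 are consecutive protein-coding genes on chromosome 11, followed by Ccl3 and Ccl4. Cxcl9 and Cxcl10 are separated by Art3 on chromosome 5, where Cxcl1 lies between Cxcl15 and Cxcl2. Promoter sequences, running from 250 bases before to 50 bases after the start, were held for 7 of the 10 genes, and none was held for Ccl2, Ccl5 and Cxcl16. Of these 7, the promoters of the 4 genes with the widest differences below are printed 5′ to 3′ on the gene's own strand, from RefSeq on GRCm38.p6. They are Cxcl1 (chr5:90890995-90891294, plus strand), Cxcl9 (chr5:92328030-92328329, minus strand), Cxcl10 (chr5:92348840-92349139, minus strand) and Cxcl12 (chr6:117168285-117168584, plus strand). Capitals mark matches to motifs searched on both strands.
Cxcl1: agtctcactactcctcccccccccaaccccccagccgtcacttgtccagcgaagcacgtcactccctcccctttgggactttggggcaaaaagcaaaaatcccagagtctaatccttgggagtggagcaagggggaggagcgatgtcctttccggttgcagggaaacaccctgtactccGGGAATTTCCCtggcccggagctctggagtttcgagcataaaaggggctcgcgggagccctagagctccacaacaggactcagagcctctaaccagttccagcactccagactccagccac
Cxcl9: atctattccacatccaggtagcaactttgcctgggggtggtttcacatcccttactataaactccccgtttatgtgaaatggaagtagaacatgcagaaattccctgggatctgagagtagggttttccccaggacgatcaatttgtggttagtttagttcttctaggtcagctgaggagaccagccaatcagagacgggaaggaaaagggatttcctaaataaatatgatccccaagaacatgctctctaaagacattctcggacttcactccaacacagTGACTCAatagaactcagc
Cxcl10: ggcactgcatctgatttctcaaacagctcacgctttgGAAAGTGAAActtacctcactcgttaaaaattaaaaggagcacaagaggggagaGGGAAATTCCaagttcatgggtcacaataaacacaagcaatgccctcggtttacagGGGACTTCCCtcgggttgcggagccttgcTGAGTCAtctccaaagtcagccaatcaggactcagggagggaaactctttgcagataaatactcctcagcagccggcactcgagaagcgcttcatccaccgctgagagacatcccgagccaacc
Cxcl12: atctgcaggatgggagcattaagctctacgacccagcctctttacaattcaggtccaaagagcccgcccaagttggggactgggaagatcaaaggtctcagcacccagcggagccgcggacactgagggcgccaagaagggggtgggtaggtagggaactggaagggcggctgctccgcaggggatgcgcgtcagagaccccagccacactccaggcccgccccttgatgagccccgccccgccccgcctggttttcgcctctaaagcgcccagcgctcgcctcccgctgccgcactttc

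The motifs were the κB motif, the interferon-stimulated response element GAAANNGAAA, the interferon-γ-activated site TTCNNNGAA and the AP-1 site TGANTCA. They occurred in 4.51%, 3.44%, 8.3% and 7.81% of 32851 promoters of the same length. The Cxcl10 window held a match to the interferon-stimulated response element whose first base lay at -213 from the start, κB matches at -159 and -103 and an AP-1 match at -74. The Cxcl1 window held 2 κB matches that overlap on opposite strands, at -71 and -70, shown as 1 run of capitals. The Cxcl9 window held only an AP-1 match, at position 32 after the start, and the Cxcl12 window held no match. Of the promoters not printed, Ccl9 held a κB match at -35 and an AP-1 match at -53, and Ccl6 and Cx3cl1 held none. A match is a description of letters in a window and not a bound site.

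The first question of the design was how each kind of HCC differed from sham liver. In spontaneous HCC, Ccl5, Cxcl1, Cxcl9, Cxcl10 and Cxcl16 rose and Cxcl12 fell. The same 6 genes were called with the same directions in low-LET HCC. In high-LET HCC, Ccl5, Ccl6, Cxcl1, Cxcl10 and Cxcl16 rose, and neither Cxcl9 nor Cxcl12 passed. A gene was called where limma gave a fold above 1.3 together with a Benjamini-Hochberg adjusted p below 0.1 over all 45219 probes kept, and each gene was read from its probe of highest mean signal. The counts were thus 6 of 10 in spontaneous HCC, 6 of 10 in low-LET HCC and 5 of 10 in high-LET HCC, beside 9.31%, 7.49% and 6.67% of all probes. The median log2 fold change over the 10 genes was 0.63, 0.50 and 0.63 in the same order, whereas the median over all probes was between -0.01 and 0 in each. These 3 comparisons share the 6 sham livers.

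**Figure D1:**
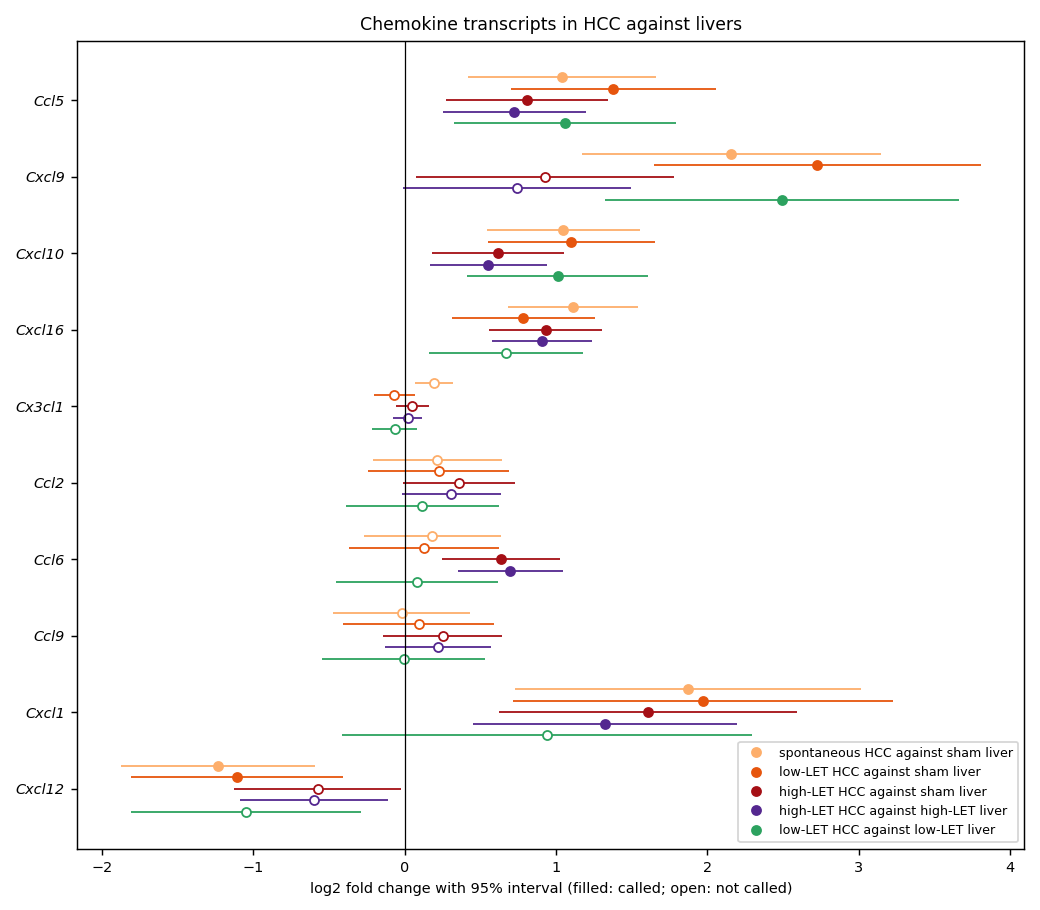
Log2 fold change of each chemokine gene in HCC (horizontal axis, with 95% confidence intervals, filled where called). The 3 kinds of HCC are set against sham liver, and high-LET and low-LET HCC also against livers of the same radiation class. Against sham liver, Cxcl9 has the highest values, 2.73 (low-LET HCC) and 2.16 (spontaneous), and Cxcl12 the lowest, -1.24 in spontaneous HCC.

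Tumors were also set against livers of the same radiation class, high-LET or low-LET, in which dose and, for high-LET, ion could differ. High-LET HCC against high-LET liver gave 5 called genes, Ccl5, Ccl6, Cxcl1, Cxcl10 and Cxcl16, all higher, with 7.97% of all probes called. Low-LET HCC against low-LET liver gave 3, Ccl5, Cxcl9 and Cxcl10, all higher, with 6.55% of all probes called. With the 3 kinds of HCC averaged at equal weight and set against the 3 kinds of non-HCC liver, 6 of 10 genes were called, with 9.32% of all probes called. Cxcl16 rose by 0.90 ± 0.12 (SE; adjusted p = 1.23e-06), Cxcl9 by 1.80 ± 0.28 (adjusted p = 9.76e-06), Cxcl10 by 0.87 ± 0.14 (adjusted p = 2.15e-05), Ccl5 by 0.94 ± 0.17 (adjusted p = 0.000124) and Cxcl1 by 1.38 ± 0.32 (adjusted p = 0.00175) on the log2 scale in this limma fit over 14 HCC and 20 livers. Cxcl12 fell by 0.96 ± 0.18 (limma adjusted p = 0.000146). These 6 calls held under every alternative run, and with any single array left out.

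No chemokine gene passed in the irradiated livers without a tumor. For high-LET liver against sham liver limma called 0 of 10 genes, with 0% of all probes called, and for low-LET liver against sham liver it likewise called 0 of 10, with 0% of all probes. At an unadjusted p under 0.05 the counts were also 0 and 0 of the 10 genes, beside 1499 and 1498 of the 45219 probes. The highest log2 difference in low-LET liver was that of Cxcl1, 1.03, with a 95% interval of -0.11 to 2.17, and in high-LET liver it was again that of Cxcl1, 0.29, with an interval of -0.63 to 1.20.

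The kinds of HCC were then compared with each other. Limma called 0 of 10 genes in high-LET against spontaneous HCC (2.46% of all probes called), 0 of 10 in low-LET against spontaneous HCC (0.00885% of all probes) and 0 of 10 in high-LET against low-LET HCC (0.621% of all probes). The counts at an unadjusted p under 0.05 were 4, 1 and 2 of 10, beside 6508, 2306 and 4807 of the 45219 probes. The limma F-test for an interaction between pathology and radiation, read at an adjusted p under 0.2, called 0 of 10 genes, with 0.701% of all probes called. At an unadjusted p under 0.05 it gave 2 of 10, beside 4440 of the 45219 probes. Its lowest p among the 10 was that of Cxcl9 (unadjusted p = 0.0192, limma adjusted p = 0.409). So the calls that high-LET HCC lacked or had alone against sham liver are not shown to differ between kinds of HCC.

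The attractants of T cells are given first. Cxcl9, which had the widest differences from sham liver of the 10 genes in low-LET and spontaneous HCC, encodes a ligand of CXCR3. Its log2 signals were 7.90, 8.13 and 8.46 (lowest, median and highest) in the 6 sham livers, and 7.82, 8.27 and 9.004 in the 10 high-LET livers. The low-LET livers were at 8.48, 8.11, 8.44 and 8.53. Livers of the 3 kinds overlapped. Spontaneous HCC gave 9.15, 10.56, 11.54 and 9.996, and low-LET HCC gave 8.89, 12.20 and 11.55. High-LET HCC ran from 7.10 through a median of 9.37 to 9.97. All 7 spontaneous and low-LET HCC lay above every sham liver, as did 6 of the 7 high-LET HCC, while the tumor at 0.4 Gy, with the lowest value of all arrays, lay below every sham liver. Cxcl9 was 4.46-fold higher in spontaneous HCC than in sham liver (log2 2.16 ± 0.48, limma adjusted p = 0.00263) and 6.62-fold higher in low-LET HCC (2.73 ± 0.53, adjusted p = 0.00104). In high-LET HCC the log2 difference was 0.93 ± 0.42 and did not pass (adjusted p = 0.202). Without the 0.4 Gy tumor it was 1.26 with an adjusted p of 0.0401, and against high-LET liver it went from 0.74 (adjusted p = 0.231) to 1.07 (adjusted p = 0.0378). That tumor therefore decided the Cxcl9 call in high-LET HCC.

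The groups of HCC followed the order low-LET (10.88 ± 1.76, SD, n = 3), spontaneous (10.31 ± 1.00, n = 4) and high-LET (9.08 ± 0.97, n = 7) in mean Cxcl9 log2 signal, above the livers at 8.15 to 8.39. No pair of neighbors in this order was called by limma. The log2 difference of high-LET from low-LET HCC was -1.80 ± 0.52 with a 95% interval of -2.86 to -0.74, which limma did not call after adjustment (adjusted p = 0.129). Leaving out the low-LET HCC with the lowest Cxcl9 made it -2.80 (adjusted p = 0.00323), and leaving out high-LET HCC replicate 1, 2 or 3 brought the adjusted p to 0.0701, 0.0717 and 0.0948. The difference of high-LET from spontaneous HCC was -1.23 ± 0.47 (adjusted p = 0.191).

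**Figure D2:**
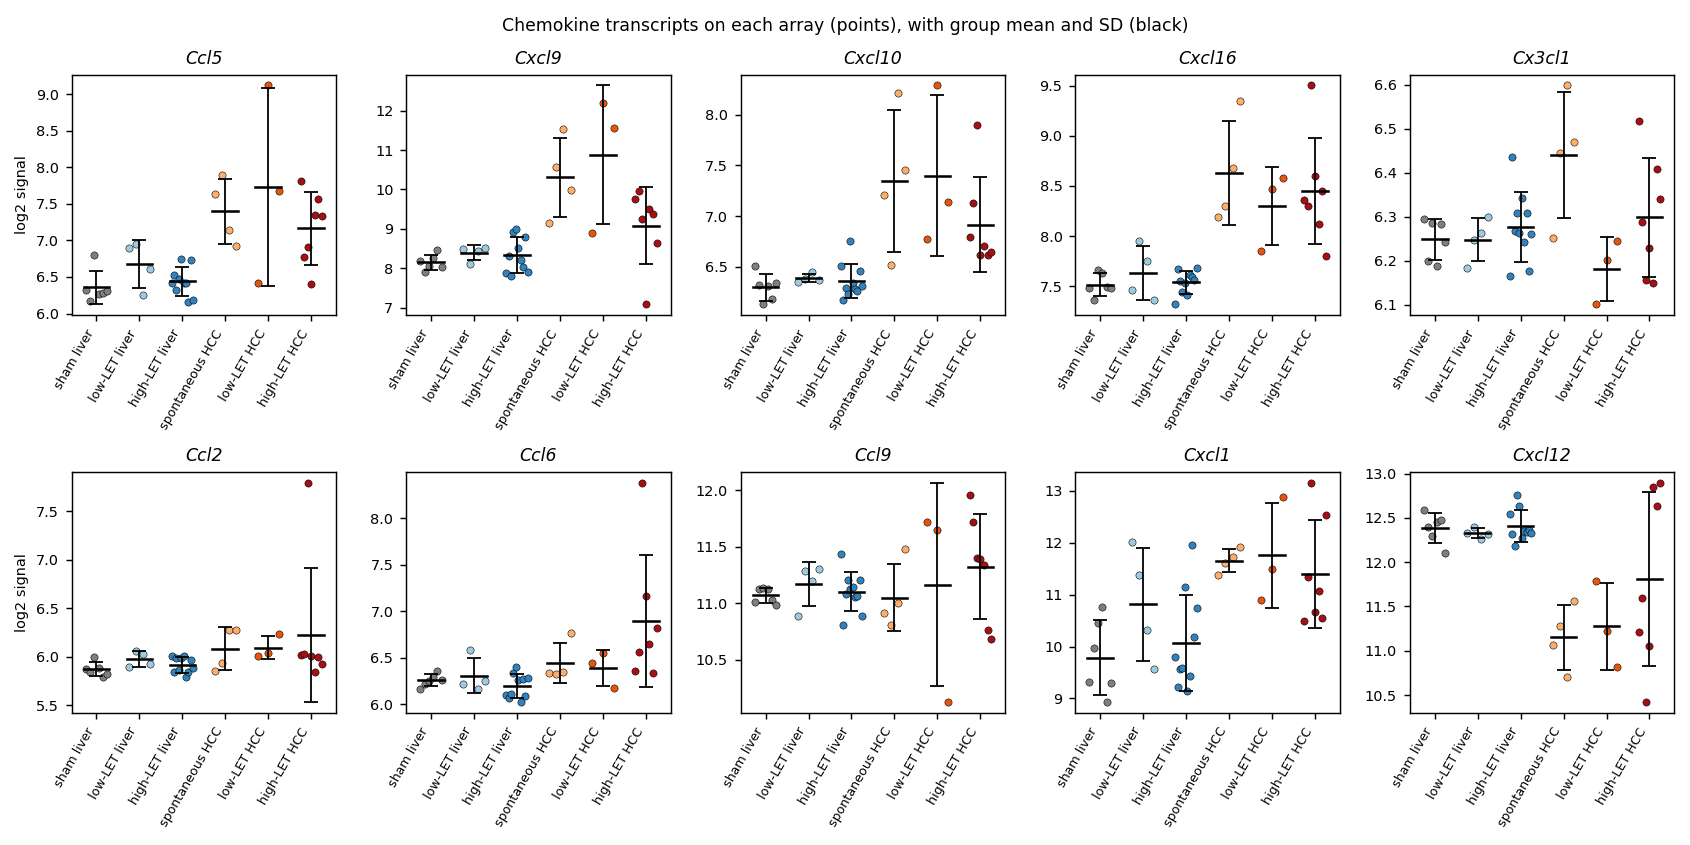
Log2 signal of each chemokine gene (vertical axes) on every array, by group, with the group mean as a bar. The Cxcl9 panel shows the 20 livers between 7.82 and 9.004 and the 14 HCC spread from 7.10 to 12.20.

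Cxcl10 encodes another ligand of CXCR3. The 20 livers lay between 6.13 and 6.75. Spontaneous HCC were at 7.21, 6.51, 8.22 and 7.45, low-LET HCC at 6.77, 8.29 and 7.14, and high-LET HCC at 6.61 to 7.90 with a median of 6.70. All 14 HCC lay above every sham liver, and 9 of the 14 lay above all 20 livers. Against sham liver, Cxcl10 was 2.07-fold higher in spontaneous HCC (log2 1.05 ± 0.25, limma adjusted p = 0.00425), 2.15-fold in low-LET HCC (1.10 ± 0.27, adjusted p = 0.00851) and 1.53-fold in high-LET HCC (0.62 ± 0.21, adjusted p = 0.0749). On the deposited normalized values the log2 differences were 2.54, 2.66 and 1.80 in the same order, so that the size of these folds depended on the background correction and normalization. The high-LET call was the least firm of these. It was lost without any one of sham livers 2, 3, 4, 5 and 6 (adjusted p 0.106 to 0.137), without high-LET HCC replicate 2 (0.58, adjusted p = 0.128) and without high-LET HCC replicate 3 (0.45, adjusted p = 0.201). The low-LET call was lost without low-LET HCC replicate 2 (0.66, adjusted p = 0.192). Against low-LET liver the difference was 1.01 ± 0.29 (adjusted p = 0.0347) and without the same tumor 0.57 (adjusted p = 0.35). Against high-LET liver it was 0.55 ± 0.19 (adjusted p = 0.0537), falling to 0.52 (adjusted p = 0.104) and 0.39 (adjusted p = 0.189) without high-LET HCC replicates 2 and 3. The second Cxcl10 probe was above background on only 2 of 34 arrays, both livers, and carries no comparison.

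Ccl5 encodes a T cell and monocyte attractant made by activated T and NK cells, among others. Sham livers ran from 6.17 through 6.29 to 6.80 and high-LET livers from 6.15 through 6.42 to 6.74, and low-LET livers were at 6.90, 6.95, 6.25 and 6.62. Spontaneous HCC were at 7.64, 7.90, 7.14 and 6.92, all above every sham liver. Low-LET HCC were at 6.41, 9.12 and 7.68, and high-LET HCC at 6.40 to 7.82 with a median of 7.34, so that 2 of 3 and 5 of 7 lay above every sham liver. The log2 fold change against sham liver was 1.04 ± 0.30 in spontaneous HCC (limma adjusted p = 0.0227), 1.38 ± 0.33 in low-LET HCC (adjusted p = 0.00726) and 0.81 ± 0.26 in high-LET HCC (adjusted p = 0.0538). On the deposited normalized values they were 2.56, 2.74 and 2.08. Each of these calls depended on single arrays. In spontaneous HCC it was lost without replicate 2 (0.87, adjusted p = 0.102), in low-LET HCC without replicate 2 (0.69, adjusted p = 0.217), and in high-LET HCC without HCC replicate 1 (0.70, adjusted p = 0.112) or without sham liver 2 (0.77, adjusted p = 0.112). Against high-LET liver the difference was 0.72 ± 0.23 (adjusted p = 0.0373) and no single array ended that call. Against low-LET liver it was 1.06 ± 0.36 (adjusted p = 0.0843) and was lost without any one of 5 of the 7 arrays, the lowest value being 0.37 without low-LET HCC replicate 2.

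Marker genes of T cells were read beside these genes. Against sham liver, 9.31%, 7.49% and 6.67% of all probes were called in spontaneous, low-LET and high-LET HCC. Of 14 T cell markers listed 12 were measured, and against sham liver none rose in high-LET or spontaneous HCC and 1, Cd3g (log2 0.38, limma adjusted p = 0.0777), rose in low-LET HCC. At an unadjusted p under 0.05 the counts for spontaneous, low-LET and high-LET tumors were 3, 5 and 4 of 12. Over all 45219 probes they were 9289, 7797 and 8824. Cd8a and Cd5, which mark cytotoxic and all T cells, were above background on no array of sham livers or of high-LET or spontaneous HCC. The mean log2 level over the 12 ran from 6.57 to 6.63 in sham livers, from 6.64 to 6.66 in spontaneous HCC, from 6.49 to 6.73 in low-LET HCC and from 6.48 to 6.67 in high-LET HCC. Cd8b1, a subunit of the CD8 co-receptor, fell in high-LET HCC (-0.95, adjusted p = 0.00951). Between kinds of HCC, Foxp3 alone of the 12 was called, higher in high-LET than in low-LET HCC (0.54, limma adjusted p = 0.0239). A fit of only those groups called 0 of all probes, beside 281 in the main fit, so this call was lost there. Of the 9 NK and cytotoxic markers 8 were measured. Limma called none of them in any kind of HCC against sham liver, and 1, 2 and 2 had an unadjusted p under 0.05 in high-LET, low-LET and spontaneous tumors. Over all HCC against all livers 1 of the 8 was called, Prf1, which rose (0.62, limma adjusted p = 0.0654), with 9.32% of all probes called. The part of these cell types in the chemokine values was not tested.

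Cxcl16 encodes a membrane-bound chemokine and scavenger receptor of macrophages and endothelium. Its difference between HCC and liver was the most uniform of the 10. Sham livers lay between 7.36 and 7.66 and high-LET livers between 7.32 and 7.68, and low-LET livers were at 7.46, 7.95, 7.75 and 7.36. Spontaneous HCC were at 8.19, 8.30, 8.68 and 9.34, low-LET HCC at 7.85, 8.47 and 8.58, and high-LET HCC at 7.80 to 9.50 with a median of 8.36. All 14 HCC were above every sham liver, and 12 of 14 were above all 20 livers. The fold against sham liver was 2.16 in spontaneous HCC (log2 1.11 ± 0.21, limma adjusted p = 0.000473), 1.91 in high-LET HCC (0.93 ± 0.18, adjusted p = 0.00131) and 1.72 in low-LET HCC (0.78 ± 0.23, adjusted p = 0.0316). Against high-LET liver high-LET HCC gave 0.91 ± 0.16 (adjusted p = 0.000269). The low-LET call was lost without low-LET HCC replicate 2 (0.70, adjusted p = 0.149) or 3 (0.65, adjusted p = 0.195). Low-LET HCC against low-LET liver gave 0.67 ± 0.25, which was not called (adjusted p = 0.128), and 0.89 (adjusted p = 0.0407) without low-LET HCC replicate 1. The second, dimmer Cxcl16 probe gave 0.50 in spontaneous (called), 0.35 in low-LET and 0.33 in high-LET HCC against sham liver, the last with an adjusted p of 0.0317 but a fold under 1.3.

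Cx3cl1, which encodes the other membrane-bound chemokine, the ligand of CX3CR1, stayed close to its level in sham liver. Its log2 signals lay between 6.16 and 6.44 in the 20 livers, and were 6.25, 6.44, 6.60 and 6.47 in spontaneous HCC. In low-LET HCC they were 6.10, 6.20 and 6.24, and in high-LET HCC they ran from 6.15 through 6.29 to 6.52. No fold against sham liver exceeded 1.3. The largest was 1.14 in spontaneous HCC (log2 0.19 ± 0.06, limma adjusted p = 0.0413). On the deposited normalized values this difference was 0.78 and was called (adjusted p = 0.0521).

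The monocyte attractants gave few differences. Ccl2, which encodes the ligand of CCR2, was not above background in any of the 6 sham livers or the 10 high-LET livers, and in 1 of 4 low-LET livers. It was above background in 2 of 4 spontaneous HCC (6.27 and 6.27), 2 of 3 low-LET HCC (6.04 and 6.23) and 1 of 7 high-LET HCC (7.79). That last tumor, replicate 3 at 0.2 Gy, stood alone, the next high-LET HCC being at 6.03. No comparison called Ccl2. Set against the background limit of sham livers, the mean of high-LET HCC was 1.12-fold higher. This rested on that tumor: the fitted log2 difference was 0.36 (limma adjusted p = 0.273) with it and 0.10 (adjusted p = 0.452) without it. For low-LET and spontaneous HCC the fold against that limit was 1.02 each, and the fitted differences were not called (adjusted p = 0.736 and 0.663). These folds are not minimum rises, because each kind of HCC also held tumors not above background.

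Ccl6 encodes a CC chemokine of myeloid cells described in rodents. Its level was low in liver, between 6.16 and 6.36 in sham livers and between 6.03 and 6.40 in high-LET livers, of which 8 of 10 were above background, and 6.22, 6.59, 6.17 and 6.25 in low-LET livers. Spontaneous HCC were at 6.33, 6.32, 6.34 and 6.76 and low-LET HCC at 6.44, 6.55 and 6.17. High-LET HCC were at 6.36, 6.56, 8.37, 7.16, 6.64, 6.34 and 6.82, so that 5 of 7 lay above every sham liver. Ccl6 was 1.55-fold higher in high-LET HCC than in sham liver (log2 0.64 ± 0.19, limma adjusted p = 0.0349) and 1.62-fold higher than in high-LET liver (0.70 ± 0.17, adjusted p = 0.00525). Without high-LET HCC replicate 3 the values were 0.39 (adjusted p = 0.0245) and 0.45 (adjusted p = 0.00199), and on the deposited normalized values they were 1.74 and 2.05. In a fit of high-LET HCC and sham livers alone the adjusted p against sham liver was 0.259, and the BeadChip block gave 0.294. The differences in spontaneous HCC (0.18 ± 0.22) and low-LET HCC (0.13 ± 0.24) did not pass. The difference of high-LET from spontaneous HCC was 0.45 (adjusted p = 0.328), and that from low-LET HCC was 0.51 (adjusted p = 0.439), so a difference between kinds of HCC was not called.

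Ccl9, a neighbor of Ccl6 that encodes a related mouse chemokine, was bright in every liver, at 10.99 to 11.13 in sham livers. It was at 10.91, 10.80, 11.001 and 11.48 in spontaneous HCC, at 11.72, 11.65 and 10.13 in low-LET HCC, and ran from 10.68 through 11.39 to 11.96 in high-LET HCC. Tumors thus lay on both sides of the livers, 5 of the 14 above and 4 below all 20. The log2 differences from sham liver were -0.02 ± 0.22 in spontaneous, 0.09 ± 0.24 in low-LET and 0.25 ± 0.19 in high-LET HCC, and none was called. Without low-LET HCC replicate 3 the low-LET value was 0.61 (limma adjusted p = 0.098).

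Markers of monocytes and macrophages were read beside these genes. Of 6 monocyte markers measured, Ly6c1 and Plac8 rose in high-LET HCC against sham liver (log2 1.09 and 1.19) and also in spontaneous HCC (0.80 and 0.77), and Plac8 rose in low-LET HCC (1.07). Of 13 macrophage and Kupffer cell markers measured, 7 rose in high-LET HCC, 6 in spontaneous HCC and 1 in low-LET HCC, with list medians of 0.63, 0.30 and 0.06, and none fell. Of all probes 6.67%, 9.31% and 7.49% were called in the same order. Against low-LET liver the list median in low-LET HCC was -0.21. Over all HCC against all livers, with 9.32% of all probes called, 6 rose, and the Kupffer cell marker Clec4f, named here after its values were seen, fell (-0.94, limma adjusted p = 0.0444). C1qb rose by 1.305 in high-LET HCC and by 1.17 in spontaneous HCC. The mean log2 level of the 13 ran from 7.47 to 7.91 in sham livers, from 7.57 to 8.65 in spontaneous HCC, from 7.33 to 8.11 in low-LET HCC and from 7.65 to 8.67 in high-LET HCC. Their part in the chemokine values was not tested.

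Cxcl1, which encodes a neutrophil attractant that binds CXCR2, was higher in every kind of HCC but also varied widely among livers. Sham livers were at 8.94 to 10.76 with a median of 9.64. Low-LET livers were at 12.02 (7 Gy), 11.37 (5 Gy), 10.31 (3 Gy) and 9.57 (6 Gy), and high-LET livers ran from 9.13 through 9.69 to 11.95. Some irradiated livers were therefore as high as tumors. Spontaneous HCC were at 11.38, 11.60, 11.72 and 11.93, low-LET HCC at 10.91, 11.49 and 12.89, and high-LET HCC at 10.49 to 13.15 with a median of 11.07. All spontaneous and low-LET HCC and 4 of 7 high-LET HCC lay above every sham liver, but only 3 of 14 HCC lay above all 20 livers. The fold against sham liver was 3.66 in spontaneous HCC (log2 1.87 ± 0.56, limma adjusted p = 0.027), 3.92 in low-LET HCC (1.97 ± 0.61, adjusted p = 0.0448) and 3.05 in high-LET HCC (1.61 ± 0.48, adjusted p = 0.0347). All these calls were lost when median scaling of the arrays replaced quantile normalization (adjusted p = 0.113, 0.125 and 0.116). The low-LET call was also lost without low-LET HCC replicate 3 (1.41, adjusted p = 0.317). Against high-LET liver, high-LET HCC gave 1.32 ± 0.43 (adjusted p = 0.0396), and 1.03 (adjusted p = 0.135) without replicate 3. Against low-LET liver, low-LET HCC gave 0.94 with a 95% interval of -0.41 to 2.29 (adjusted p = 0.568).

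Neutrophil markers were high on some of the arrays with high Cxcl1. Of 12 markers measured, S100a8 (log2 2.66, limma adjusted p = 0.0105), S100a9 (1.99, adjusted p = 0.0522) and Ltf rose in high-LET HCC, Ltf alone rose in low-LET HCC and limma called none in spontaneous HCC (2 at an unadjusted p under 0.05, beside 9289 of the 45219 probes). Of all probes 6.67%, 7.49% and 9.31% were called in the same order. The mean level of the 12 was 6.11 to 6.37 in sham livers, 6.15 to 6.87 in spontaneous HCC, 6.60 to 6.96 in low-LET HCC and 6.35 to 8.60 in high-LET HCC. The highest, 8.60, was that of high-LET HCC replicate 3. This tumor had the highest Ccl2, Ccl6, Cxcl1, Cxcl10 and Cxcl16 and the lowest Cxcl12 of its group. Its monocyte markers were also highest, at 7.69, and its hepatocyte markers were the lowest of its group, at 10.66. Among livers the highest neutrophil marker level was 7.39, in the low-LET liver at 7 Gy, which also had the highest Cxcl1 of its group. The part of these cells in the chemokine values was not tested.

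**Figure D3:**
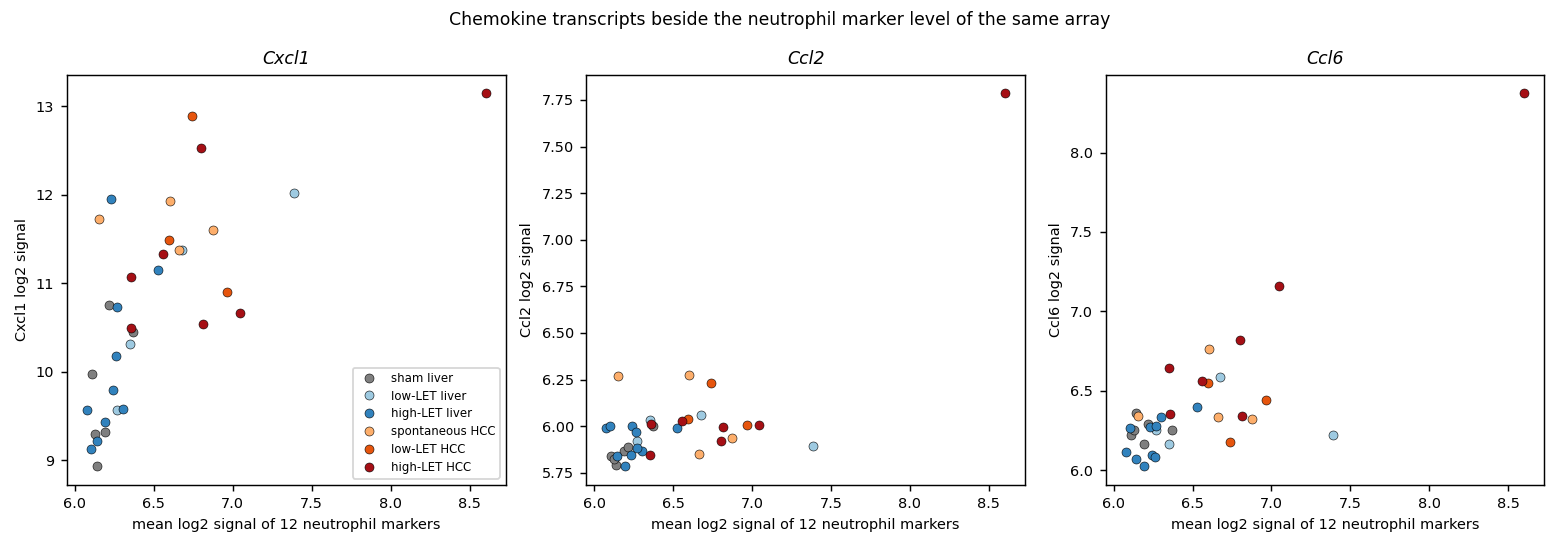
Log2 signal of Cxcl1, Ccl2 and Ccl6 (vertical axes) against the mean log2 signal of 12 neutrophil markers on the same array (horizontal axis), 1 point per mouse, colored by group. High-LET HCC replicate 3 stands at the upper right of each panel, with a marker level of 8.60.

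Cxcl12 was the chemokine that fell. It was bright in liver, at 12.11 to 12.59 in sham livers, 12.18 to 12.75 in high-LET livers and 12.33, 12.40, 12.26 and 12.31 in low-LET livers. Spontaneous HCC were at 11.06, 11.28, 10.70 and 11.56 and low-LET HCC at 11.79, 11.22 and 10.82, each below every liver. High-LET HCC did not form a single band. Their values were 11.21, 11.60, 10.43, 11.06, 12.85, 12.64 and 12.89, of which 4 lay below every liver and 3 above every sham liver. The 3 high values came from a tumor at 0.2 Gy and both tumors at 1 Gy. Their numeric sample titles were also all higher than those of the 4 low tumors, and the ion of the 0.2 Gy tumors was not settled. The part of dose, ion or sample series in this split was not tested. Cxcl12 was 2.35-fold lower in spontaneous HCC (log2 -1.24 ± 0.31, limma adjusted p = 0.00803) and 2.16-fold lower in low-LET HCC (-1.11 ± 0.34, adjusted p = 0.0443) than in sham liver. In high-LET HCC the difference was -0.57 ± 0.27 (adjusted p = 0.23), and it passed without replicate 5 (-0.75, adjusted p = 0.0699) or 7 (-0.75, adjusted p = 0.0631). Against high-LET liver it was -0.60 ± 0.24 (adjusted p = 0.112), and it passed without replicate 5, 6 or 7 (adjusted p = 0.0245, 0.0413 and 0.0215). The low-LET call was lost without low-LET HCC replicate 2 (-1.08, adjusted p = 0.131) or 3 (-0.88, adjusted p = 0.254). Low-LET HCC against low-LET liver gave -1.05 ± 0.37 (adjusted p = 0.103), and -1.304 (adjusted p = 0.0512) without replicate 1. High-LET HCC exceeded spontaneous HCC by 0.66 ± 0.30, which was not called (adjusted p = 0.309), and by 0.89 (adjusted p = 0.0666) without high-LET HCC replicate 3.

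The other Cxcl12 probes bore on this. Of the 5 probes, 3 were above background on every array, and all had negative values in each kind of HCC against sham liver. In spontaneous HCC the other 2 of these probes gave -1.33 (limma adjusted p = 0.0274) and -1.21 (adjusted p = 0.049), both called. In low-LET HCC they gave -1.26 (adjusted p = 0.0831, called) and -0.88 (adjusted p = 0.3), and in high-LET HCC -0.29 and -0.04, neither called. Against high-LET liver, the first of these 2 probes had a mean log2 signal of 8.88 in high-LET HCC and 9.03 in the livers. The second had 8.77 and 8.68, so its mean lay higher in the tumors. The remaining 2 of the 5 probes were above background on at most 3 arrays.

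**Figure D4:**
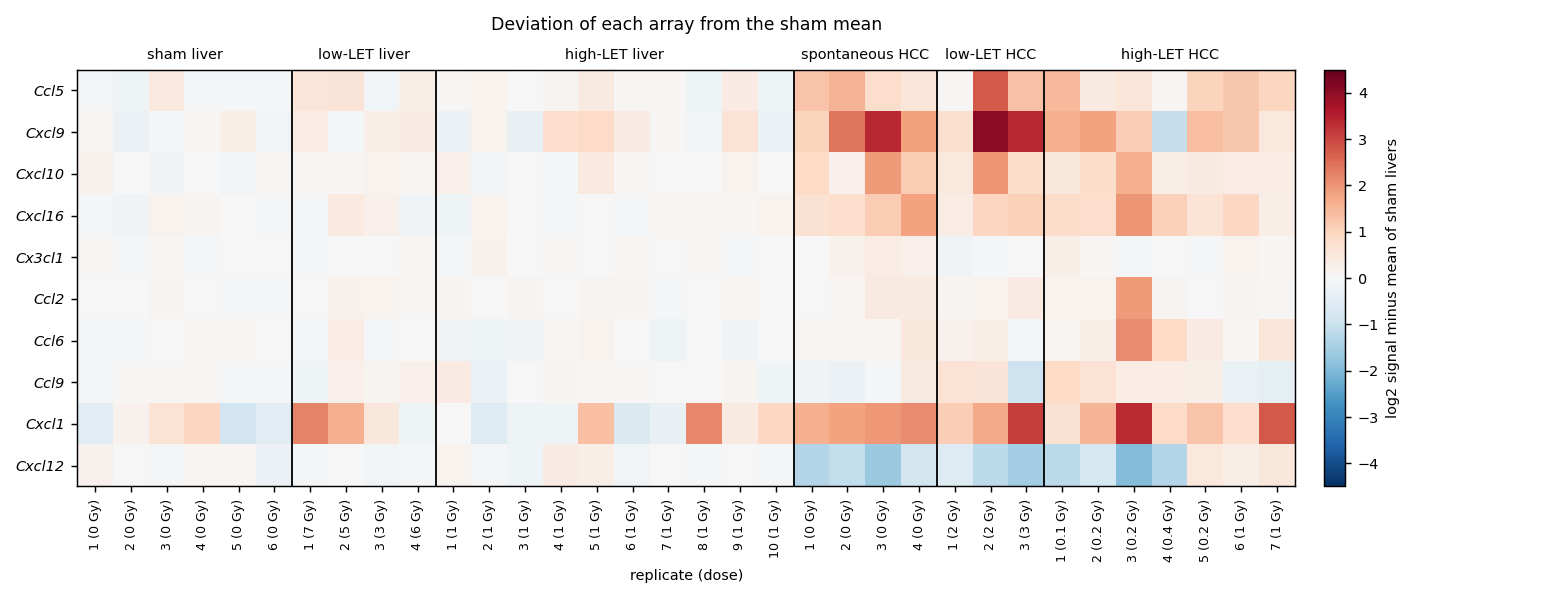
Log2 signal of each chemokine gene (rows) minus its mean in sham livers, on each of the 34 arrays (columns, labelled by replicate and dose in Gy). Red squares mark higher and blue squares lower values, and the Cxcl12 row shows 4 high-LET HCC below and 3 above the sham livers.

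The arrays lay on 8 BeadChips, slides that each carry several arrays, and the arrays of a group lay on 3 to 6 chips. With BeadChip as a fixed block, spontaneous HCC kept all 6 calls against sham liver, and all HCC against all livers kept all 6. Low-LET HCC against sham liver kept 2 of 6, Ccl5 (1.20, limma adjusted p = 0.0702) and Cxcl9 (2.69, adjusted p = 0.00659), with only 1 BeadChip holding both groups. On that chip Ccl5 was 0.39 lower in the tumor and Cxcl9 0.82 higher. High-LET HCC against sham liver kept 1 of 5, Cxcl16 (0.69, adjusted p = 0.0498), while Ccl5 (0.77, adjusted p = 0.133), Ccl6 (0.44, adjusted p = 0.294), Cxcl1 (1.02, adjusted p = 0.281) and Cxcl10 (0.51, adjusted p = 0.328) were not called. High-LET HCC against high-LET liver kept Ccl5, Ccl6 and Cxcl16 and gained Ccl9 (0.48, adjusted p = 0.0865), and low-LET HCC against low-LET liver kept Cxcl9 (2.10, adjusted p = 0.0603). No called gene changed direction with the block.

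**Figure D5:**
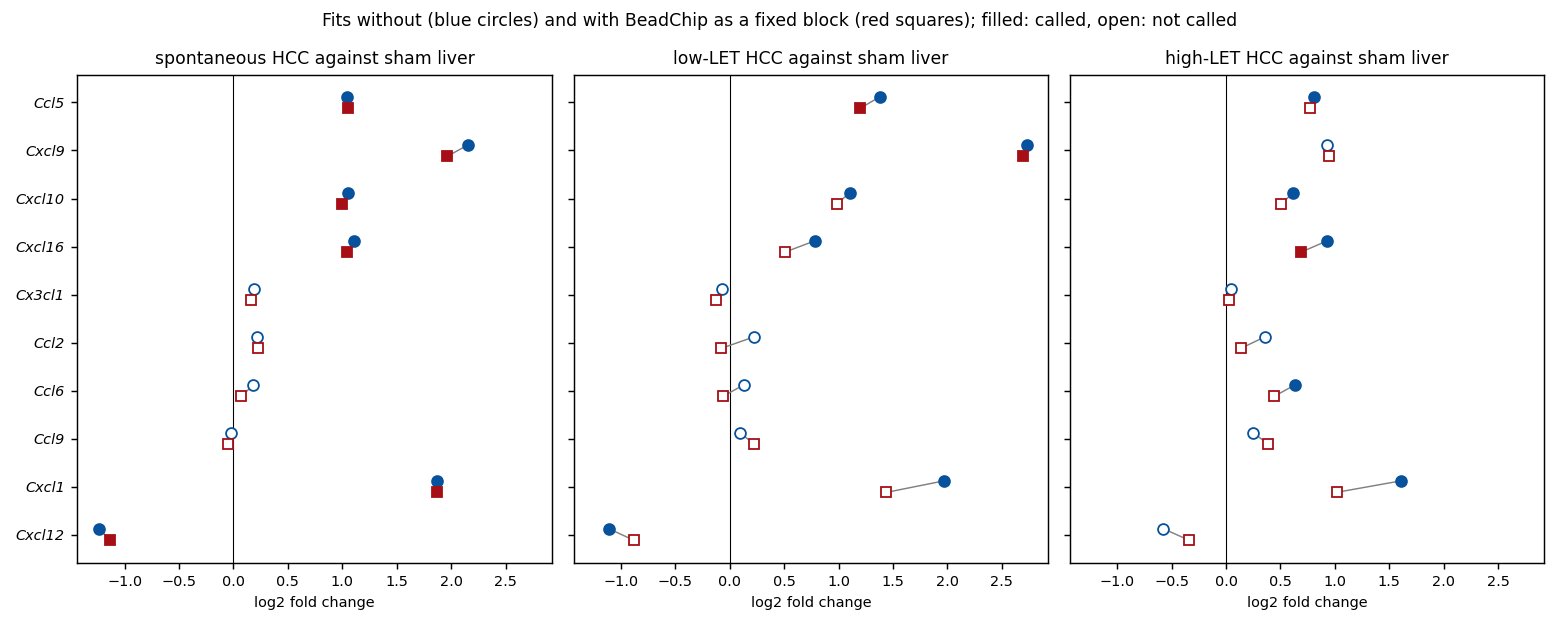
Log2 fold change against sham liver of each chemokine gene without (blue circles) and with (red squares) BeadChip as a fixed block, filled where called. The 6 spontaneous HCC calls stay filled, whereas Cxcl16 alone stays filled in high-LET HCC, at 0.93 without and 0.69 with the block.

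Within single BeadChips the differences could be read directly. On the 2 chips with both groups, spontaneous HCC exceeded sham liver in Cxcl9 by 1.11 and 2.59, in Cxcl1 by 1.74 and 2.73, in Ccl5 by 1.24 and 1.39, in Cxcl16 by 0.77 and 1.00 and in Cxcl10 by 0.79 and 1.19, and Cxcl12 differed by -1.48 and -1.43. On the 3 chips with both, high-LET HCC exceeded sham liver by 0.70 to 0.82 in Cxcl16, 0.47 to 1.10 in Ccl5, 0.29 to 0.79 in Cxcl10, 0.09 to 0.45 in Ccl6 and 0.09 to 2.04 in Cxcl1. Cxcl9, which was not called, was higher by 1.298 to 1.93 on the same chips, none of which held the 0.4 Gy tumor. On the 3 chips with high-LET HCC and high-LET liver its difference was negative on 1, the chip with that tumor (-1.03), and positive on the other two. On the 1 chip with both, low-LET HCC differed from sham liver by 0.19 in Cxcl16, 0.64 in Cxcl10, 0.45 in Cxcl1 and -0.50 in Cxcl12. Over the 6 chips that held HCC and liver, Cxcl9, Cxcl10, Cxcl16, Ccl5 and Cxcl1 were higher in HCC on all 6 and Cxcl12 was lower on all 6.

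Co-variation across mice was checked for 6 pairs, the T cell attractants Cxcl9, Cxcl10 and Ccl5 with each other, the neighbors Ccl6 and Ccl9, Ccl2 and Cxcl1, and the membrane-bound Cxcl16 and Cx3cl1. Of 12 relations, 6 pairs in the 14 HCC and in the 20 livers, none passed at an adjusted p of 0.05, and 3 had a Pearson and 2 a Spearman p under 0.05 before adjustment (permutation tests, two-sided). In HCC Cxcl9 and Ccl5 gave r = 0.66 (permutation p = 0.00978, adjusted p = 0.0587) and rho = 0.57 (permutation p = 0.0356, adjusted p = 0.26), and Cxcl9 and Cxcl10 gave r = 0.62 (permutation p = 0.0186, adjusted p = 0.0743) and rho = 0.49 (permutation p = 0.0777, adjusted p = 0.26). Without the 2 tumors farthest from the Cxcl9 median, low-LET HCC 2 and high-LET HCC 4, r was 0.27 and 0.41. Leaving out extreme tumors narrows the range of Cxcl9, which can itself lower r, so whether these relations rested on those tumors was not settled. Ccl2 and Cxcl1 gave r = 0.62 (permutation p = 0.00643, adjusted p = 0.0587) and rho = 0.45 (permutation p = 0.105, adjusted p = 0.26), and r = 0.35 without spontaneous HCC 4 and high-LET HCC 3. As deviations from group and BeadChip means these r values were 0.50, 0.41 and 0.71. Ccl6 and Ccl9 gave r = 0.75 and rho = 0.42 as such deviations in HCC, beside r = 0.24 between their log2 signals (permutation p = 0.42, adjusted p = 0.558). Taking out group and BeadChip means leaves few free values among 14 HCC, so the values for deviations are descriptions with no test.

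For each chemokine the genes whose deviations from the 6 group means were most like its own over the 34 arrays were found among 15108 genes. Ccl5 was most like Cd3g, a subunit of the T cell receptor complex (r = 0.87), followed by the T cell receptor segment Trbv13-2 (0.73) and the cytotoxic granule gene Nkg7 (0.72). Ccl2 was most like Sorl1 (0.97) and the chemokine genes Cxcl2 (0.96) and Ccl3 (0.96), with high-LET HCC replicate 3 far from the rest. Ccl6 was most like Sirpb1a (0.91), Tlr13 (0.91) and Stk17b (0.91), and Cxcl1 was most like Socs3, a feedback inhibitor of cytokine signaling (0.76), Mcl1 (0.71) and Plcg2 (0.69). The closest genes were Kdelr3 for Cxcl10 (0.85), Tfcp2l1 for Cxcl9 (0.72), Plekhb1 for Cxcl12 (0.89), Serpinb6a for Cxcl16 (0.92), Dph3 for Ccl9 (0.88) and Cenpx for Cx3cl1 (0.72). These values share arrays and BeadChips and are descriptions with no test.

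The rest of the chemokine system was read from lists of genes. Of 26 other chemokine genes measured, against sham liver spontaneous HCC had 5 higher and 1 lower, low-LET HCC 3 higher and 1 lower and high-LET HCC 1 higher and 1 lower, with list medians of 0.06, 0.04 and 0.06. Of all probes 9.31%, 7.49% and 6.67% were called in these comparisons. In the same order, Cxcl14 rose in all kinds (1.62, 1.75 and 1.55) and Ccl25, which encodes a ligand of CCR9, fell in all kinds (-0.60, -0.44 and -0.50). Cxcl11, the other CXCR3 ligand gene, rose in low-LET HCC (0.78, limma adjusted p = 0.00146) and spontaneous HCC (0.66, adjusted p = 0.00184). It was lower in high-LET HCC than in spontaneous HCC (-0.59, adjusted p = 0.0257) and than in low-LET HCC (-0.70, adjusted p = 0.0351), and was the only one of the 26 called in either. Fits of only the groups compared called 1 of all probes in the first of these comparisons and 0 in the second, beside 1111 and 281. The Cxcl11 call against low-LET HCC was therefore lost there. Cxcl17 rose in low-LET HCC (1.67) and spontaneous HCC (0.94), and Cxcl13, a B cell attractant, rose in spontaneous HCC (1.39). Of 17 chemokine receptor genes measured, none was called in high-LET or low-LET HCC against sham liver, and Cx3cr1 rose in spontaneous HCC (0.50, adjusted p = 0.0854). At an unadjusted p under 0.05 the counts of receptor genes were 2 in high-LET and 2 in low-LET HCC.

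Among 19 genes measured that induce or process chemokines, Ifngr1, which encodes the ligand-binding chain for interferon-γ, rose by 1.94 in spontaneous, 1.57 in low-LET and 1.16 in high-LET HCC. Dpp4, which encodes a protease that trims chemokines such as CXCL10 and CXCL12, fell in high-LET (-0.77) and low-LET HCC (-1.21). The κB-pathway genes Tnfaip3 (0.84), Nfkbia (0.89) and Relb (0.74) and the receptor gene Tnfrsf1a (0.81) rose in high-LET HCC, and Relb rose in spontaneous HCC as well (0.84). Irf1 rose in spontaneous HCC (0.62) and Irf8 in low-LET HCC (0.39). In the fit of all groups Ifngr1 was lower in high-LET than in spontaneous HCC (-0.78, limma adjusted p = 0.0938), with 2.46% of all probes called. The called genes of this list were 5 higher and 1 lower in high-LET HCC, 2 higher and 1 lower in low-LET HCC, and 3 higher in spontaneous HCC, with list medians of 0.35, 0.24 and 0.28. Of all probes 6.67%, 7.49% and 9.31% were called in the same order. Of 5 atypical receptors, which bind chemokines without signaling through G proteins, Ccrl2 rose in high-LET HCC (0.61) and Ackr4 fell in spontaneous HCC (-0.89).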

How the data were processed

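Total RNA of liver or tumor was amplified, biotin-labelled and hybridized to Illumina mouse BeadChips, 1 array for each of 34 mice. Bead signals were summarized by the authors with GenomicStudio. The deposited non-normalized values are linear intensities with background in them. The authors also deposited normalized values on the log2 scale (MBCB background subtraction, quantile normalization), used here as an alternative. On every array the deposited kinds of value ranked probes alike (Spearman at least 0.99997). Array condition, dose and BeadChip came from the labels, whose γ-ray doses differ from those in the methods, and which ion the 0.2 Gy high-LET tumors had received was not settled.

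Intensities were corrected with normexp (limma 3.58.1 in R 4.3.3, offset 50), quantile normalized and log2-transformed. Probes above the median of the dimmest 25% on at least 3 arrays were kept, 45219 of 45281. Platform symbols named 34885 probes by 1 gene, 18 by several and 10378 by none. A model with 1 mean per group was fitted to all arrays with lmFit and eBayes, and p-values were adjusted over all probes kept. This follows the analysis of variance with interaction and the thresholds of the study's methods. Where no array of a group lay above its background limit, a fold was set against that limit. It is a lower bound only if every array of the other group lay above background.

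The 10 genes and all gene lists were chosen with earlier results of these data known. Every probe of the 10 genes is named, with the brightest probe representing the gene. From the other lists, up to 4 called genes per list and comparison with the smallest adjusted p were eligible to be named, and for each chemokine the 3 genes most like it. T cell, NK, monocyte, macrophage, neutrophil and hepatocyte marker lists are described in the text. B cell, dendritic cell, endothelial, stellate and cholangiocyte lists were also measured: against sham liver no B cell, dendritic cell or cholangiocyte marker was called by limma in any kind of HCC (at an unadjusted p under 0.05, at most 2, 3 and 1), 2 endothelial markers rose in high-LET HCC and 2 fell in spontaneous HCC, and of the stellate markers 2 rose in low-LET tumors and, in spontaneous ones, 1 rose and 1 fell. Between 6.67% and 9.31% of all probes were called in these comparisons with sham liver. Correlations used 100000 permutations (scipy 1.17.1). Simulated arrays with known differences served to check the fit. Alternatives were no background correction, the authors' values, median scaling, 2 other filters, BeadChip as a fixed or random block, unmoderated statistics, array weights, fits of only the groups compared, any probe of a gene, a stricter threshold and leaving out single arrays.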

Additional observations from a re-analysis of the deposited data

Results flagged for a closer look

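In 50 combinations of a gene and a group of 4 to 10 arrays, an extreme array was set apart from the rest of its group by Dixon's ratio at the 95% level, which chance alone exceeds in about 1 in 20 groups. It did so in 5. High-LET HCC replicate 3, at 0.2 Gy, was the extreme array for 3 genes, with a log2 signal of 7.79 for Ccl2 (next tumor 6.03), 8.37 for Ccl6 (next 7.16) and 7.90 for Cxcl10 (next 7.13). The same array had the highest mean of neutrophil markers (8.60) and monocyte markers (7.69) of all arrays, and the lowest mean of hepatocyte markers of its group (10.66). Sham liver 3 had a Ccl5 signal of 6.80 (next sham liver 6.32). Spontaneous HCC 4 had a Ccl6 signal of 6.76 (next 6.34).

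Cx3cl1 gave differences of opposite sign in 2 kinds of HCC, neither of them called. All 4 spontaneous HCC lay above the sham mean, the lowest (6.2505) only just over that mean (6.2486), with a log2 difference of 0.19, and all 3 low-LET HCC lay below the mean of low-LET livers, with a difference of -0.07. This contrast between the kinds was not tested on its own, and the interaction F-test over all groups did not call Cx3cl1 (limma adjusted p = 0.438).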

How the results depend on the processing

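Over 110 pairs of a gene and a comparison, 31 were called, and 15 kept the call under every alternative and without each array. No called value reversed. Called members in high-LET HCC against sham liver went from 5 to 3 with median scaling, 1 with BeadChip as a fixed block and 3 at an adjusted p under 0.05. In low-LET HCC against sham liver they went from 6 to 2 with the block, and in high-LET HCC against high-LET liver from 5 to 3 with median scaling. In low-LET HCC against low-LET liver the 3 became 5 with the filter on the background limit or with array weights, and 1 with the block or with only the groups compared. Between kinds of HCC, where no member was called, array weights gave 1 (Cxcl12) for high-LET against spontaneous and 4 (Ccl5, Cxcl9, Cxcl10 and Cxcl12) for high-LET against low-LET, and the filter on the background limit gave 1 (Cxcl9) for the latter. Relations between members past an adjusted p of 0.05 went from 0 to 4 with median scaling. The causes were not tested.

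With single arrays left out, called members ranged from 3 to 6 in high-LET HCC against sham liver (3 without sham liver 2), 2 to 6 in low-LET HCC (2 without low-LET HCC 2) and 5 to 6 in spontaneous HCC. They ranged from 3 to 6 in high-LET HCC against high-LET liver (3 without high-LET HCC 3) and 1 to 5 in low-LET HCC against low-LET liver (5 and 1 without low-LET HCC 1 and 2). The range was 0 to 1 for high-LET against spontaneous HCC (1 without high-LET HCC 3) and 0 to 2 for high-LET against low-LET HCC (2 without low-LET HCC 1, 1 without high-LET HCC 1, 2 or 3). It was 6 to 6 for all HCC against all livers, and 0 to 0 for the remaining comparisons.

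Over all probes, median scaling called 1405, 1744 and 2237 against sham liver in high-LET, low-LET and spontaneous tumors, with 74.0%, 71.6% and 56.4% of them higher, beside 3015, 3385 and 4211 with 47.4%, 46.6% and 49.8% higher after quantile normalization. The authors' values called 4893 in the first of these. Fits of only the groups compared called 1 probe in high-LET against spontaneous HCC and 0 in high-LET against low-LET HCC, beside 1111 and 281 in the main fit. The comparisons were unpaired, with 1 array per mouse. Of the 10 genes, Ccl2, Ccl5, Ccl6, Cxcl10 and Cx3cl1 had dim signals in livers, which limits their folds: on the deposited normalized values the log2 differences of Cxcl10 from sham liver were 1.80 to 2.66, beside 0.62 to 1.10.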
